A study of Homo sapiens with 21 samples.

Results

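The genes described here are 37 components of the primary cilium and of the machinery that moves cargo in and out of it, taken by name from the 28395 genes of the count table: the BBSome and its assembly factors, the intraflagellar transport (IFT) complexes, the transition zone and a basal body protein. All 37 were found in the table, and all 37 were among the 16036 genes that passed the filter on low counts. The members were chosen by name with earlier results of these data known, so counts of members called are not free of that choice. Those results included the fall of BBS12, which was among the strongest in these data. That fall is given as a description with no test.

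RNA was measured in Hs578T, a human triple-negative breast cancer cell line that is wild type in the labels, in 7 groups of 3 replicates. The groups received the vehicle DMSO, 0.1 μM THZ531, 3.16 μM lapatinib, 1 μM nilotinib, 0.1 μM THZ531 with 3.16 μM lapatinib, 0.1 μM THZ531 with 1 μM nilotinib, or 1 μM THZ531. THZ531 is a covalent inhibitor of the kinases CDK12 and CDK13, which phosphorylate RNA polymerase II during elongation. Lapatinib inhibits EGFR and HER2, and nilotinib inhibits BCR-ABL and related tyrosine kinases. All libraries come from this 1 cell line, and the study describes the sequenced samples as coming from independent experiments, while the labels name no culture or batch. Total counts per library lay between 97612207 and 112229052. The mesenchymal marker VIM was at 6657 to 7168 CPM (read counts scaled to library size) in DMSO, and the oestrogen receptor gene ESR1 at 0.339 to 0.397 CPM. Of the epithelial markers listed, CDH1 was at 0.169 to 0.247 CPM in DMSO, EPCAM at 0.017 to 0.0518 and KRT18 at 83.5 to 84.1. Of 8 genes of motile cilia, 3 passed the filter on low counts. The scaling factors (trimmed mean of M-values, TMM) ran with the treatments: they lay between 0.867 and 0.921 in the 9 libraries of both combinations and 1 μM THZ531, and between 1.07 and 1.11 in the other 12.

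The primary cilium is a non-motile antenna of the cell surface built on the basal body. IFT-B carries cargo towards its tip and IFT-A back to its base, and the transition zone is the gate at its base. The BBSome is a coat complex that moves membrane receptors out of the cilium, recruited to membranes by the small GTPase ARL6. MKKS, BBS10 and BBS12 resemble subunits of the cytosolic chaperonin CCT and act with it in assembling the BBSome. Mutations in these genes cause Bardet-Biedl, Joubert and Meckel syndromes.

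Promoter sequences show which members share a motif of the kind bound by RFX factors, the transcription factors of many ciliary genes. The motif searched was GTNNCC, up to 3 bases of any kind, and its inverted copy GGNNAC, which reads the same on both strands. RefSeq promoters (GRCh38.p14, 250 bases before to 50 after the start) were at hand for 32 of the 37 members, with 41 promoters in all, and 8 of these (19.5%) held the motif, against 4.31% of the promoters of tested genes and 3.87% of all promoters. By gene this was 7 of 32 members (21.9%) and 5.79% of tested genes with a promoter. The sites are shown because they are what these 7 members share by sequence, with the motif in capitals and its coordinates:
ARL6 at chr3:97764387-97764398 (+ strand): acgctgGTGCCCGGTAACgacact
ARL6 at chr3:97764734-97764747 (+ strand): gctcctGTTGCCAAGGGAACggtgcc
BBIP1 at chr10:110919150-110919164 (- strand): ctcaccGTTACCCGGGGCAACagctga
BBIP1 at chr10:110919194-110919207 (- strand): cttcctGTTTCCAGGGTGACgtagat
IFT122 at chr3:129440212-129440226 (+ strand): atgtacGTTGCCAGGGGTAACgcaggt
IFT57 at chr3:108222415-108222427 (- strand): ccggtgGTCGCCTGGTAACcggtcg
IFT57 at chr3:108222441-108222454 (- strand): agtctaGTTTCCCTGGTGACggattg
IFT74 at chr9:26956384-26956396 (+ strand): gcccccGTTGCCGGGATACgccgcg
TCTN1 at chr12:110614129-110614141 (+ strand): gtcgcgGTTGCCGGGCAACgcgctg
WDR19 at chr4:39182466-39182479 (+ strand): cgcgcgGTCTCCTGGGTGACgggaac
A match is a description of letters, not a binding site. The 7 genes did not move as a group when THZ531 was added to nilotinib (values below): IFT57, IFT122, TCTN1 and IFT74 were higher, ARL6 and WDR19 lower, and BBIP1 was not called.

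The RefSeq promoter entries of BBS12 and BBS10, 1 each, did not hold the motif. That of BBS12 belongs to the start near which its GENCODE v44 gene begins and lies inside its longer RefSeq span, whose outer start was not searched. The 250 bases before these starts are shown because these were the lowest 2 members. Capitals mark GTTGC or its reverse complement GCAAC, which lacks the last base of an arm GTNNCC, and other stretches that fit GTNNCC are not marked:
BBS12 at chr4:122732454-122732703 (+ strand): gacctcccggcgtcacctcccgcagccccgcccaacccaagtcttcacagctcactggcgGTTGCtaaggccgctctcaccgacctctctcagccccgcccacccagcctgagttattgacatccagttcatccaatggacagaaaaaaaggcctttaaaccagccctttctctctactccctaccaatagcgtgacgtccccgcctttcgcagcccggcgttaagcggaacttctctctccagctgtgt
BBS10 at chr12:76348416-76348665 (- strand): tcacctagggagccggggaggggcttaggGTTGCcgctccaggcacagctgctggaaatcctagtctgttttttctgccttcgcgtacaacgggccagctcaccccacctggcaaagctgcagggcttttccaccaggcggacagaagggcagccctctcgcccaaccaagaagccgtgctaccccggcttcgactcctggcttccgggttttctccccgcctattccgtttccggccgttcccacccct
Each of these held 1 such stretch, and 28.1% of the upstream parts of promoters of tested genes held at least 1. The next base is C in BBS10, which completes an arm, and T in BBS12, which does not. Their G and C content was 58.8% for BBS12 and 62.8% for BBS10.

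In DMSO the members differed in level. Per kilobase of transcript, the lowest was CEP290, a transition zone protein, at 0.756 ± 0.276 CPM (SD, n = 3), and the highest was IFT46, of IFT-B, at 29.2 ± 2.56. BBS12 stood near the low end at 1.51 ± 0.15 CPM per kilobase, below BBS10 at 4.8 ± 0.539 and MKKS at 5.89 ± 0.19. CEP290 ran from 4.61 to 8.41 CPM within DMSO and was not called in any comparison below.

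Of the chaperonin-like factors, BBS12 and BBS10 had the lowest log2 fold changes (FC) of all members and MKKS a smaller one. BBS12 was at 4.6, 4.62 and 5.45 CPM in DMSO, at 4.06, 5.16 and 5.07 with nilotinib and at 0.205, 0.194 and 0.154 with nilotinib and THZ531. It was at 5.3, 4.81 and 5.44 CPM with lapatinib, at 0.131, 0.142 and 0.212 with lapatinib and THZ531, and at 0.283, 0.272 and 0.321 with 1 μM THZ531. Every library of these 3 treated groups lay below every other library, and they held between 12 and 30 counts of BBS12. With 0.1 μM THZ531 alone the values were 4.74, 3.61 and 3.33 CPM, which overlap with DMSO. The log2 FC was -4.68 ± 0.19 (SE) for the nilotinib combination against nilotinib, a 25.6-fold lower level, and -5.00 ± 0.19 for the lapatinib combination against lapatinib, a 31.9-fold lower level. Of 16036 genes, BBS12 ranked 28 from the lowest in the first of these and 23 in the second. BBS12 lies at chr4:122700442-122744939 in RefSeq (GRCh38.p14), and its canonical transcript in GENCODE v44 has 2 exons, of which 1 is coding.

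**Figure D1:**
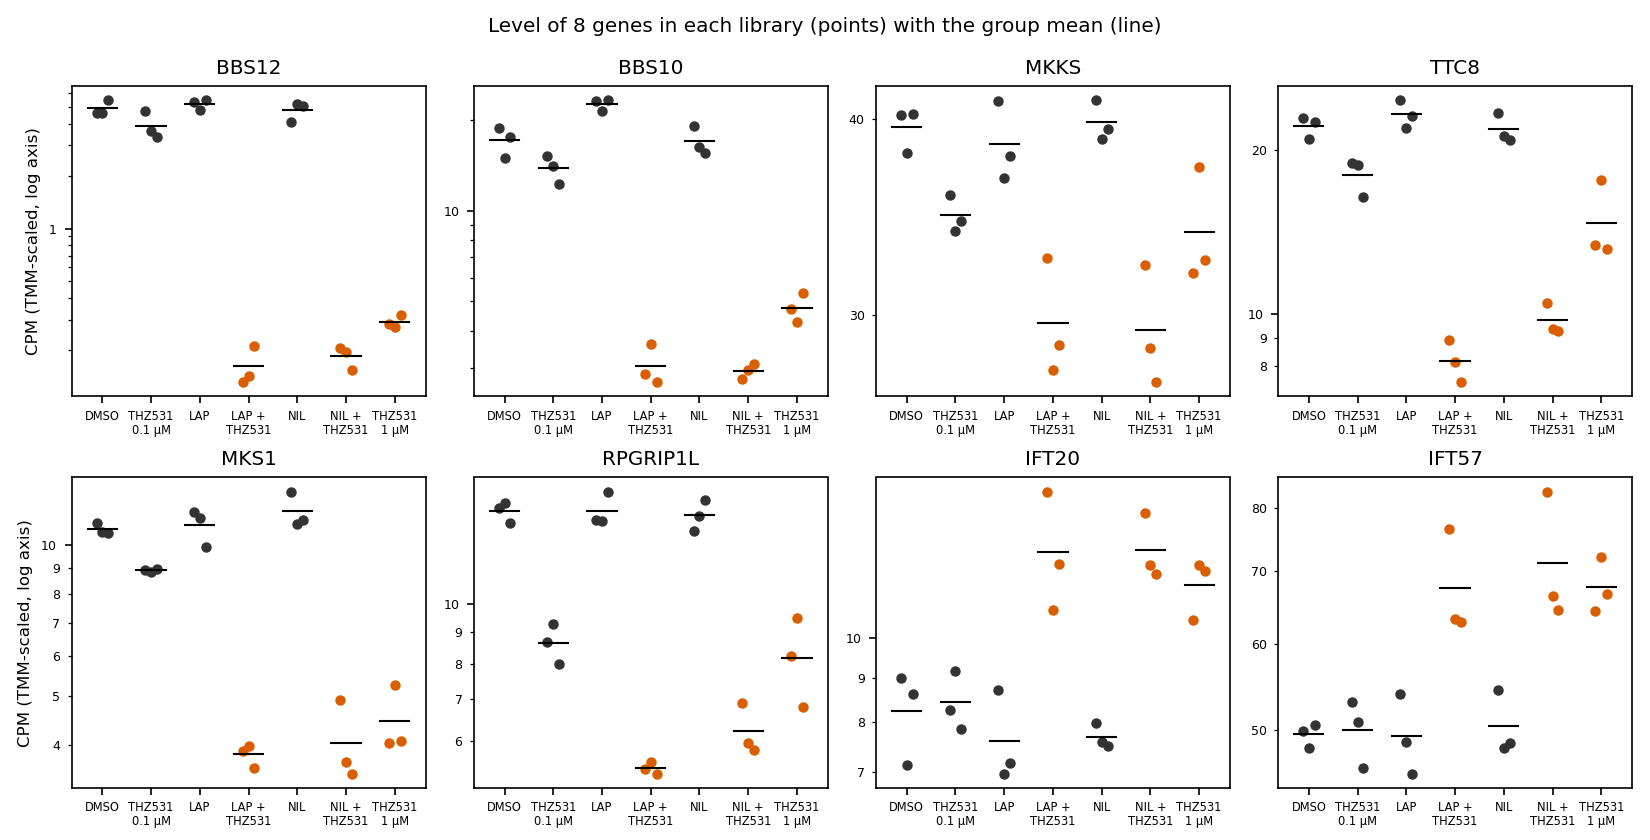
Level of 8 genes in each library, as TMM-scaled CPM on a log axis (y), by treatment (x), with points for the 3 replicates and a line for the mean; orange marks both combinations and 1 μM THZ531. BBS12 and BBS10 sit far below DMSO in all orange libraries, while IFT20 and IFT57 sit above it.

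BBS10 followed the same order. It was at 19.1, 16.3 and 15.5 CPM with nilotinib and at 2.75, 2.95 and 3.09 with the nilotinib combination. It was at 23.2, 21.4 and 23.3 CPM with lapatinib and at 2.87, 3.6 and 2.69 with the lapatinib combination, and the groups do not overlap in either comparison. The log2 FC was -2.53 ± 0.12 (adjusted p = 5.78e-13, edgeR) against nilotinib and -2.89 ± 0.13 (adjusted p = 8.78e-14, edgeR) against lapatinib. BBS10 lies at chr12:76344474-76348415 and has 2 coding exons over 3.94 kb. MKKS, the third factor, fell less: from 41.2, 38.9 and 39.5 CPM with nilotinib to 32.3, 28.6 and 27.2 with the combination, a log2 FC of -0.44 ± 0.08 (adjusted p = 6.59e-05, edgeR). Part of the MKKS exons, 12.5%, is annotated also to a second gene entry of the same name.

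The 8 subunits of CCT itself, with which these factors act, were not called lower under the TMM scaling. Of these, 7 were higher (33.6% of all tested genes were) and 0 lower in the nilotinib combination against nilotinib, with a median log2 FC of 0.38, which is less than the shift of all genes under scaling to mitochondrially encoded mRNAs given below, from 0.19 for CCT2, which was not called, to 0.58 for CCT7.

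The question of the main comparison was what 0.1 μM THZ531 does in cells that also receive a tyrosine kinase inhibitor. Against nilotinib, 14 members were lower (36.7% of all tested genes were) and 12 higher (33.6% of all) at an adjusted p under 0.05. Past a log2 FC of 1 as well, 5 members were lower (20.0% of all) and 0 higher (6.81% of all). The median log2 FC of the 37 members was -0.05, and 0.01 over all tested genes; without BBS12 it was -0.03. Against lapatinib, 15 members were lower (37.4% of all) and 9 higher (34.9% of all), and past a log2 FC of 1 there were 5 lower (20.9% of all) and 0 higher (8.23% of all). As shares of the 37, these counts were near the shares of all genes or under them. They include BBS12, whose fall is a description. Of the 36 members without it, 13 were lower against nilotinib and 14 against lapatinib, and 4 were lower past a log2 FC of 1 in each. Both comparisons named the same 5 genes past a log2 FC of 1: BBS12, BBS10, MKS1, TTC8 and RPGRIP1L.

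**Figure D2:**
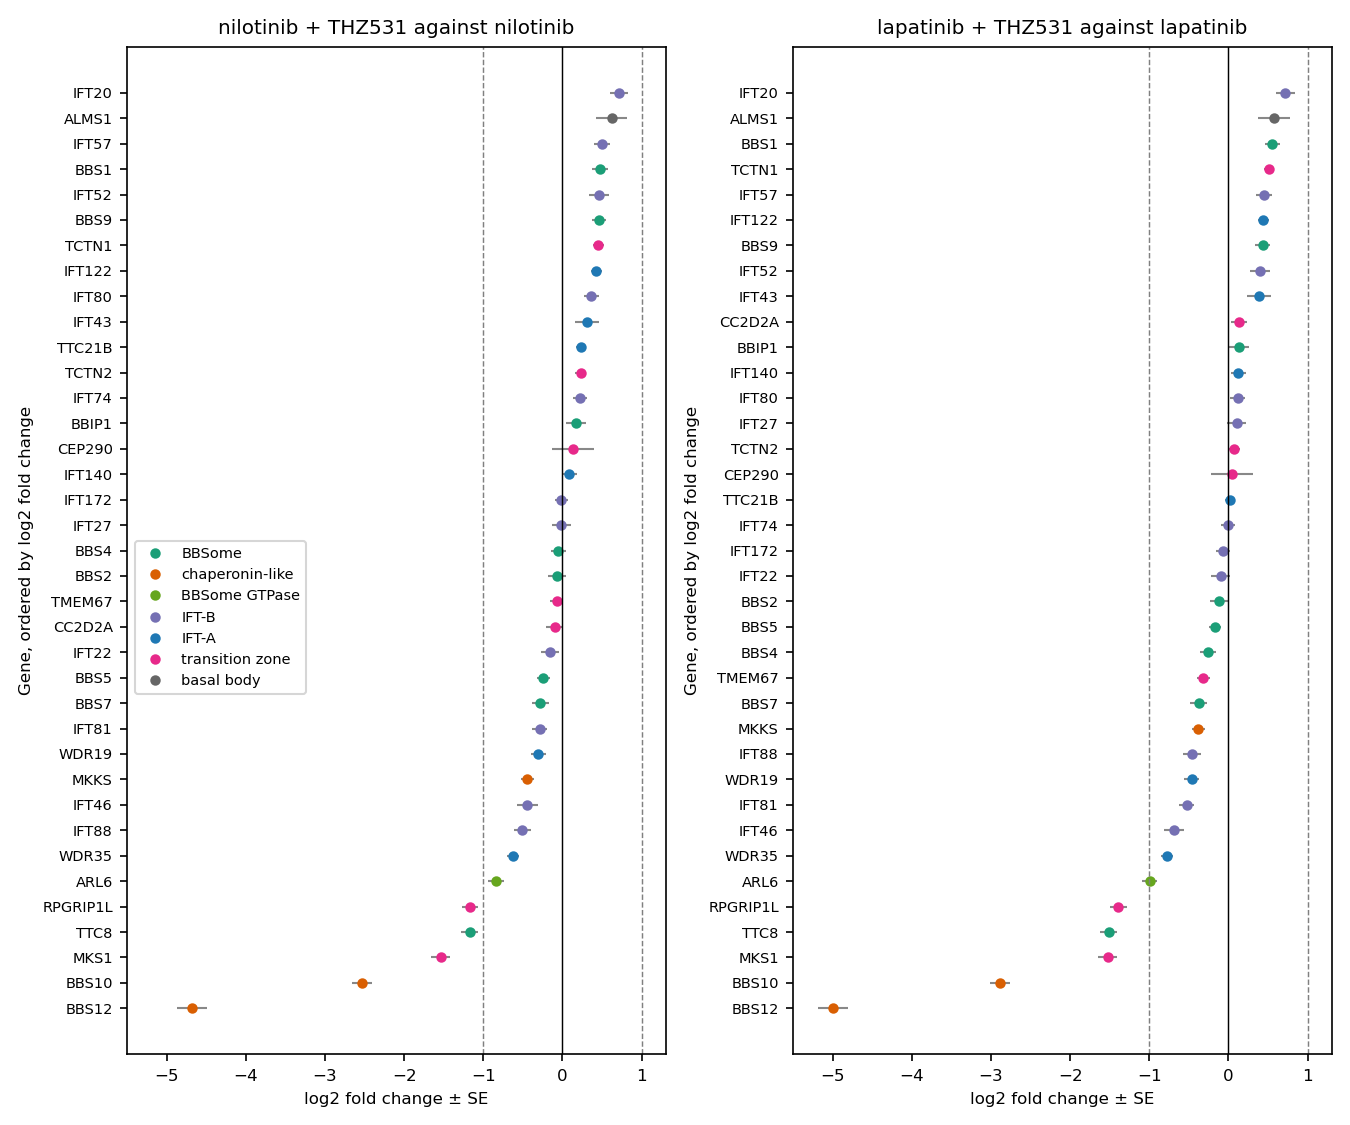
Log2 fold change ± SE (x) of the 37 members ordered by value (y), for each combination against its kinase inhibitor, coloured by complex; dashed lines mark -1 and 1. In both panels 5 genes lie below -1, led by BBS12 and BBS10, and none lies above 1.

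Among the 8 BBSome subunits, 3 were lower and 2 higher against nilotinib. TTC8, a subunit also known as BBS8, was at 23.5, 21.3 and 20.9 CPM with nilotinib and at 10.5, 9.38 and 9.29 with the combination, with a log2 FC of -1.17 ± 0.10 (adjusted p = 4.59e-09, edgeR). Against lapatinib its log2 FC was -1.51 ± 0.11. BBS1 rose, from 7.73, 9.34 and 8.16 CPM with lapatinib to 11.8, 11.8 and 13.5 with the lapatinib combination, a log2 FC of 0.56 ± 0.10 (adjusted p = 5.01e-05, edgeR). Reads of BBS1 cannot be assigned with certainty, since 54.0% of its exon bases are also annotated to another gene entry on the same strand. BBS9 rose as well, with a log2 FC of 0.46 against nilotinib, while BBS7 and BBS5 were lower at -0.28 and -0.24. Another gene entry on the same strand shares 23.5% of the BBS5 exon bases. BBS2, BBS4 and BBIP1 were not called, at -0.07, -0.05 and 0.17. ARL6, the GTPase that recruits the BBSome, fell from 10.5, 11.4 and 11 CPM with nilotinib to 6.05, 6.04 and 6.32, a log2 FC of -0.84 ± 0.10 (adjusted p = 1.7e-07, edgeR).

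Of the 11 IFT-B genes, 3 were lower and 5 higher against nilotinib, with a median log2 FC of -0.01. IFT20, the IFT-B subunit that also sits at the Golgi, showed the highest value of all members: it was at 7.98, 7.58 and 7.5 CPM with nilotinib and at 13.9, 12.1 and 11.8 with the combination, a log2 FC of 0.72 ± 0.12 (adjusted p = 2.02e-05, edgeR). With lapatinib it went from 8.7, 6.97 and 7.17 CPM to 14.7, 10.8 and 12.2, again a log2 FC of 0.72. TMEM97, on the opposite strand, covers 11.2% of the IFT20 exon bases, and the libraries were unstranded. IFT57 rose from 54.5, 48.2 and 48.6 CPM to 82.9, 66.5 and 64.4 (log2 FC 0.50 ± 0.10, adjusted p = 0.000153, edgeR). IFT88, needed for the cilium to form, fell with a log2 FC of -0.51 ± 0.11, and IFT46 with -0.44 ± 0.13.

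Of the 6 IFT-A genes, 2 were lower and 2 higher. WDR35 fell with a log2 FC of -0.62 ± 0.07 (adjusted p = 3.24e-07, edgeR) and WDR19 with -0.30, whereas IFT122 rose by 0.43 and TTC21B by 0.23 on the log2 scale.

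Of the 7 transition zone genes, 2 were lower and 2 higher. MKS1, a component of the Meckel syndrome complex, fell from 12.8, 11 and 11.2 CPM with nilotinib to 4.9, 3.69 and 3.5, a log2 FC of -1.53 ± 0.12 (adjusted p = 5.84e-10, edgeR). Against lapatinib it went from 11.7, 11.4 and 9.91 CPM to 3.89, 3.98 and 3.6. RPGRIP1L fell from 13.2, 13.9 and 14.8 CPM to 6.9, 5.95 and 5.78, a log2 FC of -1.16 ± 0.10 (adjusted p = 3.73e-09, edgeR). TCTN1, of the same region, rose with a log2 FC of 0.46, and TCTN2 with 0.23. ALMS1, the basal body protein of Alström syndrome, was at 16.6, 21.2 and 22.7 CPM with nilotinib and at 23.8, 32 and 37.3 with the combination, a log2 FC of 0.62 ± 0.20 (adjusted p = 0.00984, edgeR). Its libraries were far apart within groups, and without nilotinib replicate 1 the log2 FC was 0.50 and without nilotinib combination replicate 3 it was 0.47, neither of them called. Against lapatinib it was 0.58 ± 0.20 with overlapping groups, and 0.45 without lapatinib replicate 1 and 0.40 without lapatinib combination replicate 2, neither called.

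The rises depend on the scaling. With libraries scaled to the 13 mitochondrially encoded mRNAs, the median log2 FC of all genes moved to -0.44 against nilotinib and -0.55 against lapatinib. Under it, 22 and 28 members were lower and 0 higher. Over all 16036 tested genes, 7707 were lower and 1200 higher against nilotinib, and 8443 and 1236 against lapatinib. With library size alone, 21 members were lower and 2 higher against nilotinib (7358 and 3197 of all tested genes). With upper quartile scaling, 9 members were lower and 14 higher against nilotinib (5235 and 6329 of all). BBS10 and MKS1 were called lower under each of these scalings in both comparisons, with log2 FC values against nilotinib from -2.97 to -2.40 for BBS10 and from -1.96 to -1.40 for MKS1.

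The next comparison was 0.1 μM THZ531 on its own. Of the 37, 4 were lower than in DMSO (4.31% of all tested genes were) and 0 higher (1.78% of all), and the median log2 FC was -0.16. RPGRIP1L was at 14.3, 14.6 and 13.5 CPM in DMSO and at 8.68, 9.27 and 7.98 with 0.1 μM THZ531, a log2 FC of -0.71 ± 0.10 (adjusted p = 0.000299, edgeR). The other 3 belong to IFT-B. IFT80 went from 16.8, 14.8 and 15 CPM to 12.3, 11.6 and 10 (log2 FC -0.46 ± 0.10, adjusted p = 0.00653, edgeR). IFT81 went from 9.57, 9.1 and 9.09 CPM to 6.64, 6.66 and 7.22 (log2 FC -0.44 ± 0.10, adjusted p = 0.011, edgeR). IFT88 went from 8.64, 8.32 and 8.97 CPM to 7.24, 6.81 and 5.81 (log2 FC -0.39 ± 0.11, adjusted p = 0.0393, edgeR). The groups do not overlap for these 4, which were named because they passed the test. The share of all genes without overlap was not counted. Another gene entry on the same strand shares 27.6% of the IFT80 exon bases. The count was 2 without DMSO replicate 1 and 2 without 0.1 μM THZ531 replicate 2, and 10 when only these 2 groups were fitted. The share of all genes called in these fits was not counted. IFT88 lost its call without any 1 of 5 of the 6 libraries, and IFT81 without DMSO replicate 1 or without replicate 1 or 2 of 0.1 μM THZ531.

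No member was called with either kinase inhibitor alone. With lapatinib, 0 members were called by edgeR (0.312% of all genes were) and 0 by DESeq2, with 3 at an unadjusted p under 0.05, and log2 FC values ran from -0.22 for ALMS1 to 0.40 for BBS10. With nilotinib, 0 were called by edgeR (0.343% of all) and 0 by DESeq2, with 1 at an unadjusted p under 0.05, and values ran from -0.35 for ALMS1 to 0.29 for BBS2.

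Whether 0.1 μM THZ531 acted differently with and without a kinase inhibitor was tested by the interaction term. With lapatinib, 10 members had a lower (32.0% of all genes) and 10 a higher interaction (28.2% of all). With nilotinib, 8 were lower (31.2% of all) and 11 higher (25.6% of all). Without BBS12, whose fall led to the choice of the genes, 9 were lower with lapatinib and 7 with nilotinib. The interaction was -2.58 ± 0.17 on the log2 scale for BBS10 with lapatinib and -2.23 ± 0.17 with nilotinib, and that of MKS1 was -1.25 and -1.26. IFT80, lower with 0.1 μM THZ531 alone, had interactions of 0.57 and 0.82. In IFT81 and IFT88, also lower with 0.1 μM alone, neither interaction passed the test, with values of -0.09 and 0.15 for IFT81 and -0.07 and -0.12 for IFT88.

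**Figure D3:**
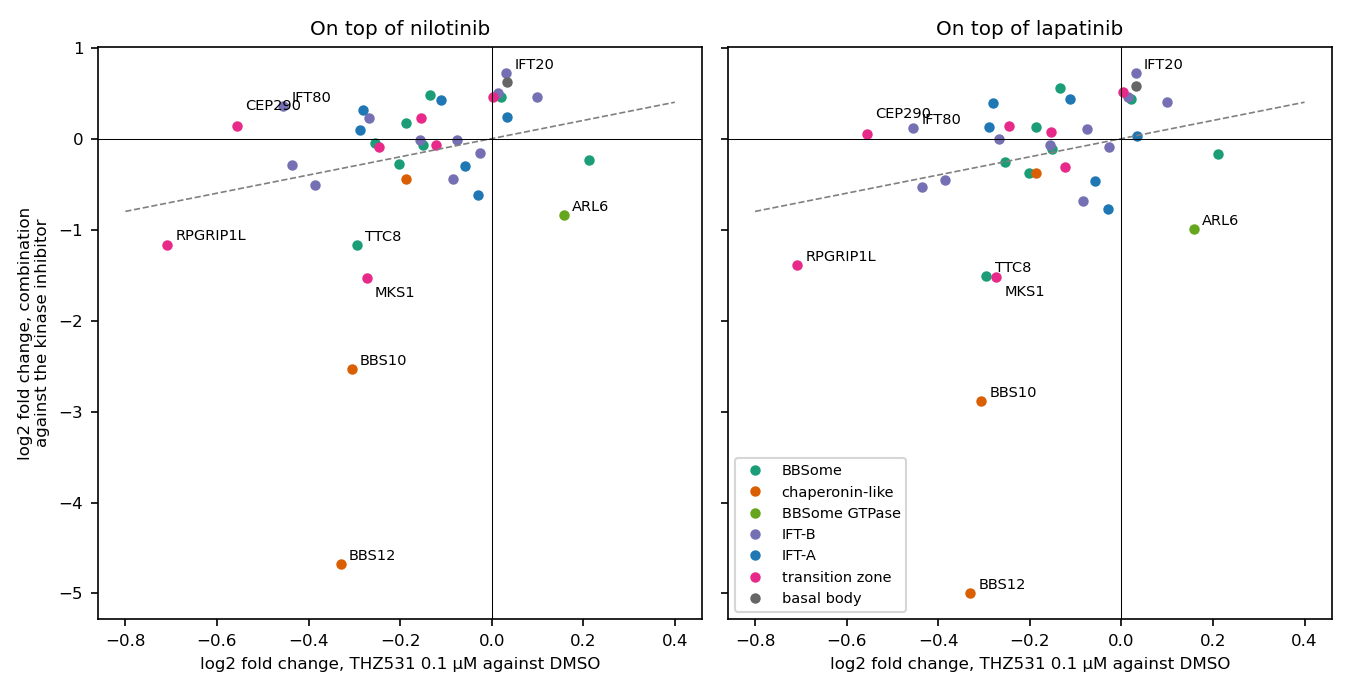
Log2 fold change of each member with 0.1 μM THZ531 alone (x) and when it was added to nilotinib or lapatinib (y); the dashed line marks equal values. BBS12, BBS10, MKS1, TTC8 and RPGRIP1L lie below the line, and IFT20 above it.

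Against 1 μM THZ531 alone, both combinations had lower levels of several members. For lapatinib, 14 were lower (16.1% of all genes) and 0 higher (12.8% of all). For nilotinib, 10 were lower (13.0% of all) and 0 higher (11.2% of all). Of the 36 members without BBS12, 13 were lower for lapatinib and 9 for nilotinib. TTC8 was at 13.4, 17.6 and 13.1 CPM with 1 μM THZ531 and at 8.93, 8.13 and 7.47 with the lapatinib combination, a log2 FC of -0.85 ± 0.10 (adjusted p = 5.95e-06, edgeR), and -0.60 ± 0.10 with nilotinib (adjusted p = 0.000244, edgeR). IFT81 was lower by -0.64 ± 0.10 with lapatinib (adjusted p = 6.02e-05, edgeR). BBS10 was lower by -0.64 ± 0.12 with lapatinib (adjusted p = 0.000541, edgeR) and -0.70 ± 0.12 with nilotinib (adjusted p = 0.000292, edgeR). For BBS12, which is among the members counted, the log2 FC was -0.85 ± 0.24 with lapatinib and -0.66 ± 0.23 with nilotinib, from counts of 12 to 30 per library; these are descriptions, since the same libraries led to the choice of the genes. Without lapatinib combination replicate 2 the lapatinib count was 9, and without nilotinib combination replicate 2 or 1 μM THZ531 replicate 2 the nilotinib count was 6 or 4. The share of all genes called without these libraries was not counted.

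Between both combinations 0 members were called by edgeR (1.47% of all genes were) and 0 by DESeq2, with 2 at an unadjusted p under 0.05. Log2 FC values ran from -0.26 ± 0.10 for IFT81 to 0.10 ± 0.27 for CEP290, lapatinib over nilotinib combination, which does not show that both act alike.

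Against DMSO, where the fall of BBS12 was seen, values are descriptions. Past a log2 FC of 1, 5 members were lower in the lapatinib combination (21.3% of all genes), 5 in the nilotinib combination (20.8% of all) and 3 with 1 μM THZ531 (18.9% of all), and 0 were higher in each (7.90%, 6.54% and 5.77% of all). The 3 at 1 μM were BBS12 at -4.06, BBS10 at -1.84 and MKS1 at -1.27, while TTC8 was at -0.59 and RPGRIP1L at -0.79.

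**Figure D4:**
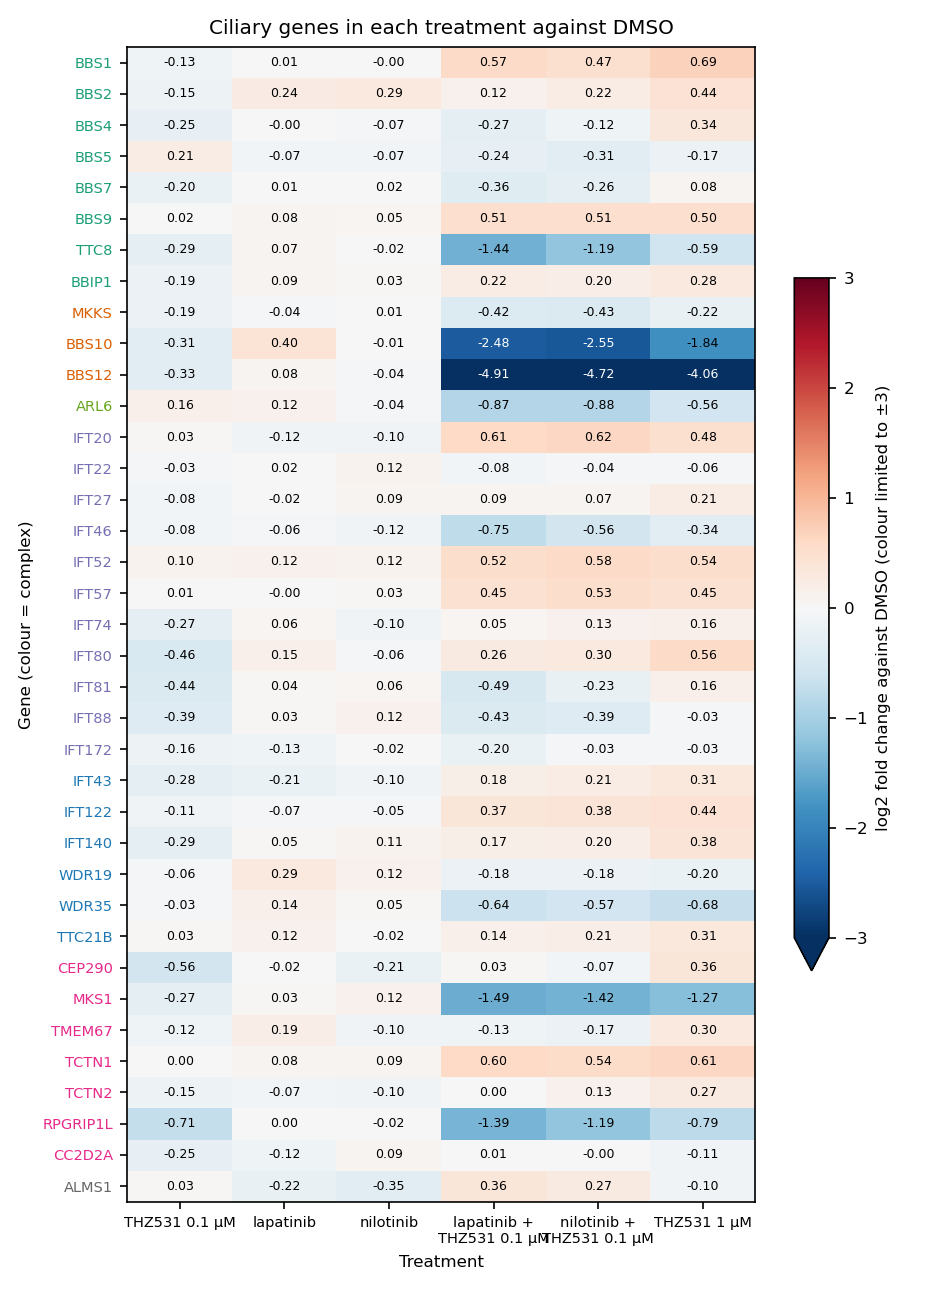
Log2 fold change against DMSO of each member (rows, coloured by complex) in 6 treatments (columns); the number in each cell is the value and the colour is limited to ±3. The columns of 0.1 μM THZ531, lapatinib and nilotinib alone are pale, and the other columns are darkest for BBS12 and BBS10.

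By gene structure, BBS12 was the only member with 1 coding exon. Of 863 tested genes with 1 coding exon, 35.1% had a log2 FC below -1 against nilotinib, and of 3034 genes with 16 or more coding exons 16.6% had. Across the 37 members, Spearman's rho between coding exons and log2 FC was 0.12 (across genes, which are not independent replicates), 0.04 without BBS12 and -0.05 without BBS12 and BBS10, and it was 0.04 over 13727 protein-coding genes. For gene span it was 0.26, 0.21 without BBS12 and 0.14 without both, and -0.07 over the protein-coding genes. All these values are against nilotinib. Against lapatinib, span gave 0.24 across the members and -0.15 over the protein-coding genes. For transcript length the members gave -0.08 against nilotinib and -0.09 against lapatinib, and the protein-coding genes -0.2 and -0.28.

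Other genes of the pathway were listed by role. These lists, with those of the CCT, RFX and Hedgehog genes, were chosen with earlier results of these data known. Their counts are therefore a description and not independent support. Of 72 such genes tested, 34 were lower and 25 higher against nilotinib at an adjusted p under 0.05, and 23 were lower and 0 higher past a log2 FC of 1. Over all tested genes 36.7% were lower, 33.6% higher and 20.0% lower past a log2 FC of 1. Among 6 other IFT genes, 5 were lower and 1 higher, from IFT70A at -2.81 ± 0.16 to HSPB11 at 0.75 ± 0.10. IFT70A and its near-copy IFT70B, at -2.15, have 1 coding exon each and can share reads. Of 9 motor genes, which pull the IFT trains, 1 was lower and 5 higher, from DYNC2I1 at -1.06 to DYNLT2B at 0.68. Of 13 other transition zone genes, 5 were lower and 4 higher, with B9D1 at 0.63. Of 10 genes of the distal appendages and centriole, 6 were lower and 4 higher, from CEP120 at -1.88 to CEP83 at 0.67. Of 10 genes of ciliary membrane traffic, 5 were lower and 2 higher, from TULP3, an adaptor that brings receptors into the cilium, at -3.24 ± 0.08 to ARL3 at 0.62.

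The next 2 lists carry the same limit of choice. The 5 RFX genes tested were all lower against nilotinib (36.7% of all genes were), from RFX1 at -2.32 ± 0.14 (17.6 CPM with nilotinib and 3.52 with the combination) to RFX5 at -0.59 ± 0.11. Of 11 genes of Hedgehog signalling, which runs through the cilium, 7 were lower (36.7% of all) and 2 higher (33.6% of all), with a median log2 FC of -1.67. Its transcription factor GLI2 was at -2.83 ± 0.20 (32.7 CPM with nilotinib and 4.59 with the combination), and its transducer SMO at 0.71 ± 0.08. In bulk RNA, fewer cells of a kind and less RNA per cell cannot be told apart.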

How the data were processed

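Polyadenylated RNA of Hs578T cells was sequenced as unstranded paired-end libraries (21 libraries, 7 groups of 3). The deposited values are raw counts per gene, which the authors made by aligning filtered reads to GRCh38 with HISAT2 2.1.0 and counting with featureCounts, per the study's methods and the submitters' processing notes; the sources used here do not give the annotation or say if each end of a pair was counted. All value columns were used (0 left out). Entrez IDs were named with RefSeq (GRCh38.p14; 27745 of 28395 matched). HSPB11 was matched by an older name.

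Counts were tested in R 4.3.3 with edgeR 4.0.16: filterByExpr, TMM, glmQLFit with 1 mean per group over all libraries, glmQLFTest, Benjamini-Hochberg over 16036 genes. SE is the log2 FC over the square root of F. CPM are TMM-scaled. A gene was called at an adjusted p under 0.05, in some counts with a log2 FC beyond 1. DESeq2 1.42.0, other scalings, filters, a replicate block, halved counts, fits of only the groups compared and leaving out each library were the alternatives. The scripts were tested on simulated data. Exons come from GENCODE v44 (15525 genes matched by name and position).

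The members and lists were chosen with earlier results of these data known. Values per library are given for BBS12, the 3 lowest and 3 highest members of each combination against its inhibitor, and members called in a single treatment, against 1 μM THZ531 or between combinations (all up to 5, else the largest 3) and, outside this rule and after their values were seen, for ARL6 and MKKS. From each list of other pathway genes the lowest and highest gene is named, except for 1 gene that is not reported here.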

Additional observations from a re-analysis of the deposited data

Results flagged for a closer look

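The effect of 0.1 μM THZ531 differed with and without a kinase inhibitor for 8 of the members with values per library. This rests on the interaction term of the edgeR fit and leaves out BBS12 and ARL6. ARL6 had called interactions of -1.15 with lapatinib and -0.997 with nilotinib. The interactions of IFT81, IFT88, ALMS1 and MKKS did not pass the test. Over all 37 members, BBS12 included, 20 interactions were called with lapatinib and 19 with nilotinib, beside the shares of all genes given above. With lapatinib the difference in log2 FC was -2.58 for BBS10, -1.25 for MKS1, -1.22 for TTC8 and -0.68 for RPGRIP1L, and 0.69 for BBS1, 0.69 for IFT20, 0.57 for IFT80 and 0.44 for IFT57. With nilotinib it was -2.23 for BBS10, -1.26 for MKS1, -0.88 for TTC8 and -0.46 for RPGRIP1L, and 0.61 for BBS1, 0.69 for IFT20, 0.82 for IFT80 and 0.49 for IFT57. BBS12 had differences of -4.67 with lapatinib and -4.35 with nilotinib, given as a description since its fall led to the choice of these genes. With scaling to mitochondrially encoded mRNAs, 0 members had a called positive difference, with 19 (lapatinib) and 12 (nilotinib) called negative. Over all 16036 tested genes, 7112 were called negative and 594 positive with lapatinib, and 6425 and 593 with nilotinib.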

How the results depend on the processing

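Directions held in all 352 recomputed log2 FC values of named members; 311 kept their side of the threshold and 41 lost it: rises of ALMS1, IFT20, IFT57 and BBS1, the 0.1 μM THZ531 values of IFT80, IFT81 and IFT88, and BBS12 against 1 μM THZ531, a description in the text above. Of 300 recomputed counts, 284 stayed within 1.5 times. With scaling to mitochondrially encoded mRNAs, members lower past a log2 FC of 1 were 11 against lapatinib, 12, 10 and 7 against DMSO (lapatinib combination, nilotinib combination, 1 μM THZ531), members called were 1 with 0.1 μM THZ531, 6 when the nilotinib combination was set against 1 μM THZ531, and 12 in the nilotinib interaction. Under that scaling the median log2 FC of all tested genes was -0.55 against lapatinib, and -0.69, -0.63 and -0.55 against DMSO in the same order. With library size alone, 8 members were lower past a log2 FC of 1 against lapatinib, where the median of all tested genes was -0.33. The share of all genes past a log2 FC of 1 was not counted under these scalings. Fitting only the groups compared gave 10 with 0.1 μM THZ531, and 6 (lapatinib) and 3 (nilotinib) against 1 μM THZ531. Fewer samples then set the spread. The share of all genes called was not counted in these fits or in those that left out 1 library. Leaving out 1 library gave 2 to 3 members with 0.1 μM THZ531 (2 without DMSO replicate 1 or 0.1 μM THZ531 replicate 2), 9 to 16 for the lapatinib combination (9 without its replicate 2) and 4 to 11 for the nilotinib combination against 1 μM THZ531 (6 without its replicate 2, 4 without 1 μM THZ531 replicate 2). The cause was not tested.

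The labels do not say what a replicate number shares across groups, and the numbers were not taken as pairs. The deviations of libraries with the same number from the group means correlated with a mean r of 0.152 over 63 pairs (36 over 0.1, lowest -0.83), and with -0.069 over 126 pairs of different numbers. The second mean follows largely from the first, because deviations from a group's own mean cancel out within the group. With the replicate as a block, 5 members were lower past a log2 FC of 1 in both combinations against their inhibitors, 4 were called with 0.1 μM THZ531, 14 and 11 against 1 μM THZ531, 20 in each interaction and 0 elsewhere among the tested comparisons. BBS12 had 12 to 30 counts in the strongly treated libraries, which limits its comparison between them.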
